A study of Mus musculus with 9 samples.

Results

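The genes described here encode the enzymes that build, lengthen and desaturate fatty acids. They are Acly, Acaca, Fasn, Scd1, Scd2, Fads1, Fads2, Elovl1, Elovl5 and Elovl6, 10 genes of the 41096 in the deposited table. A gene was taken where the table's name column held its symbol, which found 9 of the 10. For Acaca that column held no symbol, and its row was recognised by the UniProt entry written beside it. RNA was sequenced from the cells of the thioglycollate-elicited peritoneal exudate, labelled peritoneal macrophages, in 4 diabetic and 5 control samples (total RNA, messenger RNA libraries). Diabetic mice were labelled APOE-/- and had been given 5 daily doses of streptozotocin, a toxin of pancreatic beta cells, each of 40 mg/kg, beginning at an age of 8 weeks. Control mice were labelled with the same APOE-/- genotype and received citrate buffer in its place. All animals then ate western diet for 8 weeks, and cells were collected 3 days after 1.5 mL of 3% thioglycollate was injected, so the labelled genotype, the diet and an acute irritant are shared by both groups. The Apoe row was not empty in any sample: it held 282, 296, 213 and 135 FPKM in diabetic samples 1 to 4, against 231, 373, 286, 262 and 238 FPKM in control samples 1 to 5. These levels go against the label unless the reads fall outside the deleted part of the gene, which values per gene cannot show. The labels name no pooling and no donor per sample, so the p-values below measure the spread between these samples, which may in part be technical.

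Acetyl-CoA for fatty acid synthesis in the cytosol comes from citrate, is carboxylated to malonyl-CoA and is joined into palmitate by fatty acid synthase. Elongases then add carbons in the endoplasmic reticulum, and desaturases put double bonds into the chain, which sets how fluid the membranes and how unsaturated the stored esters are. The transcription factor SREBP-1c, itself a target of the oxysterol receptors LXR alpha and LXR beta, drives many of these genes, together with NF-Y and Sp1. In macrophages the pathway is tied to membrane remodelling during phagocytosis and inflammation.

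Each library held 14156421 to 16169060 reads in genes. The labelled cell type was checked against 12 macrophage markers, of which 11 were found in the table. Adgre1, which encodes F4/80, stood at 185 to 310.2 FPKM in diabetic and 256 to 310.1 FPKM in control samples, while the row for Itgam stood at 0.0795 to 0.133 FPKM in diabetic and 0.0583 to 0.246 FPKM in control samples. The FPKM of the macrophage markers summed to 1695 to 2886 in diabetic and 2203 to 2881 in control samples. Of its 10 tested genes 1 fell, Mrc1, and 0 rose. No sorting step is described, and markers of other cells were present. The 16 T cell markers summed to 158 to 602 FPKM in diabetic and 52.1 to 85.5 FPKM in control samples, and 15 of the 15 tested rose. The 12 B cell markers summed to 1633 to 3503 FPKM in diabetic and 1067 to 2242 FPKM in control samples, with 4 of 12 tested higher. NK cell markers summed to 84.5 to 116 FPKM in diabetic and 41.6 to 85.2 FPKM in control samples, with 2 of 7 tested higher. Dendritic cell markers summed to 128 to 235 FPKM in diabetic and 84.5 to 133 FPKM in control samples, with 2 of 5 tested higher and 1 lower. Mast cell markers summed to 109 to 375 FPKM in diabetic and 282 to 704 FPKM in control samples, and eosinophil markers to 13.6 to 28.4 FPKM in diabetic and 28.6 to 97.4 FPKM in control samples, with none of either list past the test. Neutrophil markers summed to 121 to 539 FPKM in diabetic and 117 to 1149 FPKM in control samples, and none of the 7 tested passed. All 8 adipocyte markers, of which fat tissue carries high levels, stayed under 1 FPKM in every sample. The part of this cell mixture in the results below was not tested.

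None of the lipogenic genes passed the test between diabetic and control samples. In the fit over all 11193 genes that reached an FPKM of 1 in at least 4 samples (limma on log2(FPKM + 1), two-sided, Benjamini-Hochberg adjusted p below 0.05), 0 of the 8 members tested were higher and 0 lower in diabetic samples. The background was 4.76% of all genes called, 2.68% higher and 2.08% lower. With limma voom on the recovered reads both counts were 0 as well. At an unadjusted p below 0.05 the count was 1 of 8, Scd1, against 22.4% of all genes. For 0 of the 8 did the groups fail to overlap, against 9.42% of all genes. The 8 tested members reached the filter in all 9 samples, and the other 2, Fads2 and Elovl6, in 0 samples. The median log2 fold change was 0.14 over the 8 members, 4 of them positive and 4 negative, and -0.013 over all genes tested. Scd1 had the largest log2 fold change of the members, 0.97, and just missed the threshold at an adjusted p of 0.061. In bulk RNA a difference in the number of cells of a type and in the RNA per cell cannot be told apart.

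**Figure D1:**
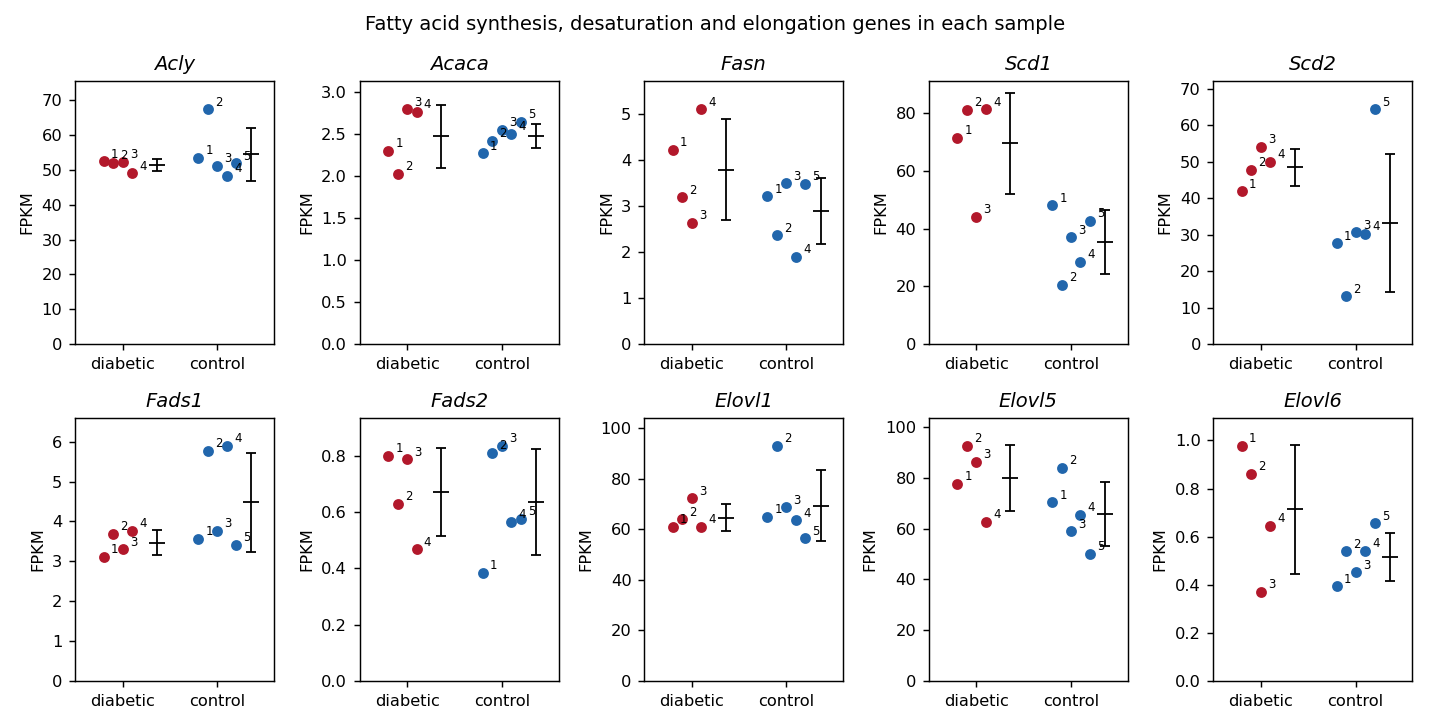
Level of each of the 10 genes in FPKM (vertical axes, each starting at 0) in the 4 diabetic samples (red, left) and 5 control samples (blue, right); small figures give the replicate number and black bars the mean and SD. Scd1 is the gene with the clearest separation: diabetic samples 1, 2 and 4 lie at 71.6 to 81.4 FPKM, above all control samples, and diabetic 3 at 44.0 FPKM lies among them.

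Scd1 and Scd2 encode stearoyl-CoA desaturases, which turn saturated stearate and palmitate into oleate and palmitoleate, and both lie on chromosome 19 of the mouse genome, with Scd4 between them in the table. In the table's coordinates Scd1 runs from 44956723 to 44969981 on the minus strand (identifier MGP_C57BL6NJ_G0025584) and Scd2 from 44834733 to 44849270 on the plus strand (identifier MGP_C57BL6NJ_G0025582). The genes are close copies, which matters for how far their values can be told apart. In the GENCODE transcripts of GRCm38 their coding sequences are identical at 965 of 1068 aligned bases (90.4%), and the longest run they share is 147 bases long. The stretch around that run is shown here because a read that lies wholly inside the shared run matches both genes; the read length is not given in the sources used here. It covers coding bases 498 to 694 of Scd1 and 507 to 703 of Scd2, counted from the first base of the start codon, with 25 bases on each side of the run, and capitals mark the 2 bases that differ.

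Scd1: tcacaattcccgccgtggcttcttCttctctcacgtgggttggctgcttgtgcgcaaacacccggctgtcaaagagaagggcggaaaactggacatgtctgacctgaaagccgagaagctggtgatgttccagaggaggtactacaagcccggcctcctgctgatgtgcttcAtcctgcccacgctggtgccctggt
Scd2: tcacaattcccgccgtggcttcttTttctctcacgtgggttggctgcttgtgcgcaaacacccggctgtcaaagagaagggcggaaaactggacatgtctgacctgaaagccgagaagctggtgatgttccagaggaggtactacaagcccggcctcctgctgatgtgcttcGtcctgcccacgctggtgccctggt

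Over the whole transcripts, which include long untranslated ends that differ, 3.03% of the windows of 50 bases in Scd1 occur in Scd2. How the authors counted such reads is not given in the sources used here, and both values are uncertain to that extent. The other copies, Scd3 and Scd4, stood at 0 to 0.0557 FPKM and 0 to 0.342 FPKM over all 9 samples.

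Scd1 had 71.6, 81.2, 44.0 and 81.4 FPKM in diabetic samples 1 to 4, against 48.1, 20.5, 37.0, 28.6 and 42.8 FPKM in control samples 1 to 5. The mean was 69.6 ± 17.6 FPKM in diabetic (SD, n = 4) and 35.4 ± 11.04 FPKM in control samples (SD, n = 5), a ratio of means of 1.96. All 4 diabetic values lay above the control mean and 3 of them above every control value, while diabetic 3 lay below control 1. The log2 fold change was 0.97 (SE 0.26, 95% interval 0.40 to 1.55), with an unadjusted p of 0.0036 and an adjusted p of 0.061 by limma over all genes. Among 11193 genes, 2.42% had a log2 fold change of at least that size in either direction. Without diabetic 3 the log2 fold change was 1.18 and Scd1 passed (adjusted p = 0.017), as it did with limma array weights (log2 fold change 0.89, adjusted p = 0.022), which gave diabetic 3 and control 2 the lowest weights, 0.438 and 0.474. In those 2 settings 1126 of 11076 and 1304 of 11193 genes passed, against 533 of 11193 in the main fit. Scd1 did not pass in the other 17 alternatives. Over all alternatives its log2 fold change stayed positive, from 0.80 to 1.22, with adjusted p from 0.017 to 0.17. Diabetic 3 is also the diabetic sample with the lowest summed T cell markers, 158 FPKM, and with the highest mean of the macrophage markers, 6.29 on the log2(FPKM + 1) scale against 5.63 to 5.89 in the other diabetic samples. The part of either in the Scd1 values was not tested.

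Scd2 had 41.9, 47.9, 54.2 and 50.1 FPKM in diabetic samples 1 to 4, against 27.7, 13.1, 30.7, 30.3 and 64.4 FPKM in control samples 1 to 5. Its mean was 48.5 ± 5.14 FPKM in diabetic (SD, n = 4) and 33.3 ± 18.9 FPKM in control samples (SD, n = 5). The 4 diabetic samples stayed within a factor of 1.29 of each other, whereas the control samples spanned a factor of 4.91, from control 2, the lowest of all 9 samples, to control 5, the highest. The log2 fold change of Scd2 was 0.69 (SE 0.35, 95% interval -0.08 to 1.47, adjusted p = 0.27 by limma). On the log2(FPKM + 1) scale the SD of its levels within groups was 0.60, larger than that of 96.0% of all genes tested. That of Scd1 was 0.45, larger than that of 91.7%, against a median of 0.20. Without control 5 the log2 fold change of Scd2 was 0.97 (adjusted p = 0.064), and without control 2 it was 0.42 (adjusted p = 0.35). The neutrophil marker S100a9 was also highest in control 5, at 529 FPKM. It had 224, 25.5, 156 and 20.3 FPKM in control samples 1 to 4, and 23.9, 154, 96.0 and 280 FPKM in diabetic samples 1 to 4. Scd2 ranked the samples of neither group in the order of S100a9. The part of neutrophils in the Scd2 values was not tested.

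The balance between the paralogs was also measured within each sample, where it does not depend on the scaling between samples. Scd2 divided by Scd1 came to 0.585, 0.590, 1.23 and 0.615 in diabetic samples 1 to 4, against 0.576, 0.640, 0.830, 1.06 and 1.50 in control samples 1 to 5. Scd1 was thus the more abundant of the pair in 3 of 4 diabetic and 3 of 5 control samples. The mean log2 ratio was -0.48 ± 0.51 in diabetic (SD, n = 4) and -0.20 ± 0.54 in control samples (SD, n = 5). The difference of -0.28 was within the spread of the samples (exact permutation test, two-sided, p = 0.48 among 126 splits; 0.72 after adjustment for the 3 values tested this way). Together the 2 genes summed to 113, 129, 98.3 and 131 FPKM in diabetic samples 1 to 4, against 75.8, 33.6, 67.7, 58.9 and 107 FPKM in control samples 1 to 5, so the groups overlapped only through diabetic 3 and control 5.

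**Figure D2:**
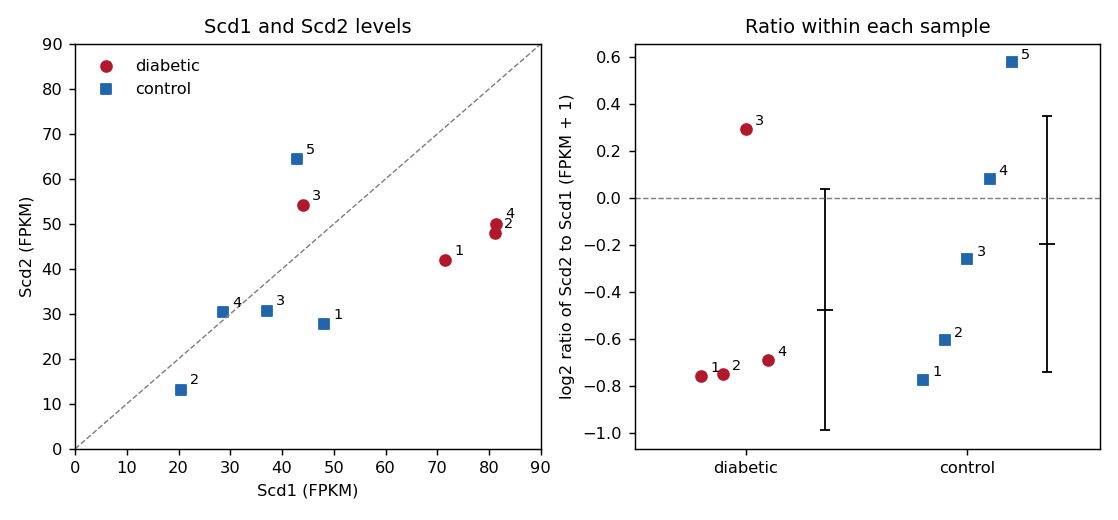
Left, Scd2 against Scd1 in FPKM, 1 point per sample with its replicate number, diabetic samples as red circles and control samples as blue squares; the dashed line marks equal levels. Right, the log2 ratio of Scd2 to Scd1 in each sample, with mean and SD in black. Diabetic samples 1, 2 and 4 lie together at the right of the level plot and low in the ratio plot, while diabetic 3, control 4 and control 5 lie above the line of equal levels.

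No gene of the synthetic core passed the test. Acly encodes ATP citrate lyase, which releases acetyl-CoA from citrate (chromosome 11, 106448583 to 106501656, minus strand). It had 52.5, 52.0, 52.3 and 49.0 FPKM in diabetic samples 1 to 4, against 53.5, 67.4, 51.1, 48.3 and 51.9 FPKM in control samples 1 to 5. Apart from control 2 every sample lay between 48.3 and 53.5 FPKM. The log2 fold change was -0.071 (SE 0.11, 95% interval -0.31 to 0.17, adjusted p = 0.75 by limma), and it turned to 0.0073 without control 2 and to 0.18 when samples were centred on macrophage markers.

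Acaca encodes acetyl-CoA carboxylase 1, which makes malonyl-CoA and is the committed step of the pathway (chromosome 11, 88120419 to 88425793, plus strand, identifier MGP_C57BL6NJ_G0019259). It had 2.30, 2.03, 2.79 and 2.77 FPKM in diabetic samples 1 to 4, against 2.27, 2.42, 2.55, 2.50 and 2.64 FPKM in control samples 1 to 5. The diabetic samples held both the lowest value and the 2 highest ones. The log2 fold change was -0.0077 (SE 0.11, 95% interval -0.24 to 0.22, adjusted p = 0.97 by limma). That interval was the narrowest of the 8 members, on a scale that shrinks the spread of low genes such as Acaca. The log2 fold change turned to 0.24 when samples were centred on macrophage markers and to 0.025 with voom. The level came from 509 to 735 reads per sample. The FPKM rests on the 17031 bases that the table gives as the length of this gene.

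Fasn encodes the multifunctional fatty acid synthase that makes palmitate (chromosome 11, 129112906 to 129131607, minus strand). It had 4.22, 3.19, 2.64 and 5.11 FPKM in diabetic samples 1 to 4, against 3.21, 2.37, 3.50, 1.90 and 3.48 FPKM in control samples 1 to 5. Diabetic samples 1 and 4 exceeded every control sample, and diabetic samples 2 and 3 lay among them. The log2 fold change was 0.29 (SE 0.18, 95% interval -0.11 to 0.70, adjusted p = 0.38 by limma), positive in every alternative.

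The elongases were led by Elovl5 and Elovl1, the members with the highest levels of all. Elovl5 lengthens polyunsaturated fatty acids (chromosome 9, 80482505 to 80555107, plus strand). It had 77.7, 92.5, 86.4 and 62.7 FPKM in diabetic samples 1 to 4, against 70.4, 83.8, 58.9, 65.5 and 50.01 FPKM in control samples 1 to 5. Diabetic samples 2 and 3 were the highest of all 9 and diabetic 4 lay among the control samples. Its log2 fold change was 0.28 (SE 0.16, 95% interval -0.07 to 0.64, adjusted p = 0.33 by limma). Elovl1, which makes very long saturated and monounsaturated chains for sphingolipids (chromosome 4, 124049538 to 124054129, plus strand), had 61.1, 64.0, 72.3 and 61.0 FPKM in diabetic samples 1 to 4, against 65.1, 93.0, 68.7, 63.6 and 56.5 FPKM in control samples 1 to 5. Control 2 stood highest for this gene and control 5 lowest. The log2 fold change was -0.084 (SE 0.14, 95% interval -0.39 to 0.22, adjusted p = 0.76 by limma), 0.026 without control 2 and 0.16 when samples were centred on macrophage markers.

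Elovl6, the elongase that takes palmitate to stearate and so feeds the stearoyl-CoA desaturases, was the lowest member (chromosome 3, 136930382 to 137046029, plus strand). It had 0.977, 0.862, 0.369 and 0.646 FPKM in diabetic samples 1 to 4, against 0.393, 0.539, 0.451, 0.541 and 0.656 FPKM in control samples 1 to 5, from 32 to 93 reads per sample. Diabetic 1 and 2 were the highest and diabetic 3 the lowest of all samples. The log2 difference on the log2(FPKM + 1) scale was 0.17 (exact permutation test, two-sided, p = 0.19, or 0.57 after adjustment for the 3 values). Without diabetic 3 it was 0.27 (exact two-sided permutation p = 0.036, unadjusted). Of the 9 such tests that each left out 1 sample, this was the only 1 below 0.05, and p ran up to 0.46.

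Of the front-end desaturases, Fads1 encodes the enzyme of the last desaturation on the way to arachidonate, and Fads2 the one that opens that route. Both are on chromosome 19, Fads1 from 7851518 to 7865500 on the plus strand and Fads2 from 7705748 to 7742931 on the minus strand. Fads1 had 3.11, 3.69, 3.30 and 3.77 FPKM in diabetic samples 1 to 4, against 3.56, 5.78, 3.77, 5.89 and 3.41 FPKM in control samples 1 to 5. Control samples 2 and 4 stood apart from the other control samples, and those overlapped with the diabetic ones. All 4 diabetic values were below the control mean, with a log2 fold change of -0.27 (SE 0.16, 95% interval -0.62 to 0.08, adjusted p = 0.34 by limma). Fads2 had 0.801, 0.629, 0.788 and 0.468 FPKM in diabetic samples 1 to 4, against 0.384, 0.811, 0.836, 0.567 and 0.576 FPKM in control samples 1 to 5. These values rest on only 9 to 19 reads per sample, and a difference was not detectable at this depth (log2 difference 0.035, exact two-sided permutation p = 0.72).

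**Figure D3:**
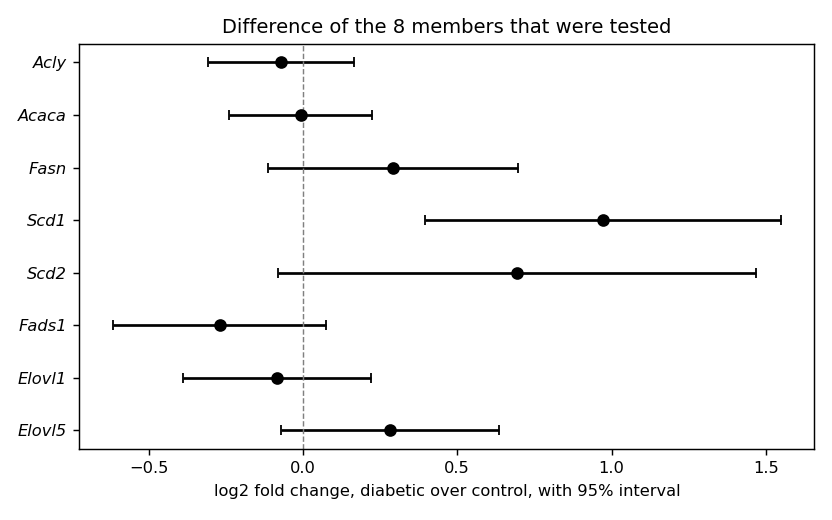
Log2 fold change of diabetic over control samples on the log2(FPKM + 1) scale for the 8 members in the fit, with 95% intervals from limma. The interval of Scd1 (0.40 to 1.55) lies above 0 before adjustment for the number of genes tested, and the intervals of the other 7 include 0.

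Levels per length put the members into 3 tiers. Averaged over the 9 samples, Elovl5 (72.0 FPKM), Elovl1 (67.2), Acly (53.1), Scd1 (50.6) and Scd2 (40.0) formed the upper tier. Fads1 (4.03 FPKM), Fasn (3.29) and Acaca (2.47) followed, and Fads2 (0.651 FPKM) and Elovl6 (0.604) came last. The tiers held in 9 of 9 samples: every sample had Scd2 above Fads1 and Acaca above Fads2. Elovl1 also exceeded Acly in 9 of 9. Other neighbours changed places. Elovl5 exceeded Elovl1 in 4 of 4 diabetic but 2 of 5 control samples, and Acly exceeded Scd1 in 1 of 4 diabetic and 5 of 5 control samples. Scd1 exceeded Scd2, Fads1 exceeded Fasn, and Fasn exceeded Acaca in 6 of 9 samples each. Fads2 exceeded Elovl6 in 4 of 9. The synthase and the carboxylase thus stood below the main elongases and the stearoyl-CoA desaturases in every sample.

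Within-group spread on the log2(FPKM + 1) scale differed between the members as well. The SD of log2 levels within groups was 0.11 for Acaca and 0.14 for Acly, smaller than that of most genes (8.68% and 20.1% of genes tested were steadier). It was 0.21 for Elovl1, 0.25 for Fads1, 0.26 for Elovl5 and 0.30 for Fasn, and Scd1 and Scd2 varied most. That scale shrinks the spread of genes at a few FPKM, so this order depends in part on level. As SD over mean of FPKM, Acaca had 15.2% in diabetic and 5.74% in control samples, against 3.18% and 13.7% for Acly. Fasn had 28.9% and 24.9%, against 25.3% and 31.2% for Scd1 and 10.6% and 56.7% for Scd2. Control 2 was the lowest sample for both Scd1 and Scd2 and the highest for Acly and Elovl1. Control 2 also had the highest mean of macrophage markers, 6.33 on the log2(FPKM + 1) scale against 6.02 to 6.18 in the other control samples, and its part in these values was not tested.

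The transcription factors that drive these genes were measured next. Srebf1, which encodes SREBP-1, had 14.5, 12.2, 13.3 and 12.5 FPKM in diabetic samples 1 to 4, against 12.9, 13.7, 14.5, 13.1 and 14.6 FPKM in control samples 1 to 5. Its groups overlapped throughout (log2 fold change -0.065, SE 0.088, adjusted p = 0.71 by limma; 0.18 when centred on macrophage markers). Srebf2, the factor of sterol synthesis, had a log2 fold change of -0.052 (SE 0.15, adjusted p = 0.87 by limma; 0.19 when so centred), and Nr1h2, which encodes LXR beta, one of 0.094 (SE 0.12, adjusted p = 0.70). Nr1h3, which encodes LXR alpha, had 29.5, 21.2, 32.9 and 23.3 FPKM in diabetic samples 1 to 4, against 41.7, 58.3, 38.4, 33.9 and 33.6 FPKM in control samples 1 to 5. Every diabetic value lay below every control value, yet the gene did not pass (log2 fold change -0.59, SE 0.18, adjusted p = 0.085 by limma). It passed without diabetic 3 (log2 fold change -0.70, adjusted p = 0.041) and with array weights (log2 fold change -0.55, adjusted p = 0.036), and in 0 of the other 17 alternatives. Centred on macrophage markers its log2 fold change was -0.35 (adjusted p = 0.25), and over all 19 alternatives adjusted p ran from 0.036 to 0.25. The messages say nothing of how much SREBP was cleaved or how much LXR was bound by ligand.

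Sequence around an annotated start was available for 7 of the 10 members in the RefSeq table of GRCm38.p6. Of these, 2 are shown, for the synthase and for the elongase with the highest level, as examples in which the NF-Y box occurs. Each window runs from 250 bases before to 50 after the start. Capitals mark matches on either strand to the NF-Y box CCAAT, the SREBP element TCACNCCAC, the E-box CACGTG or the Sp1 box GGGCGG. Both printed windows are oriented along their gene, Fasn on chr11:120824498-120824797 (minus strand) and Elovl5 on chr9:77917115-77917414 (plus strand).

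Fasn: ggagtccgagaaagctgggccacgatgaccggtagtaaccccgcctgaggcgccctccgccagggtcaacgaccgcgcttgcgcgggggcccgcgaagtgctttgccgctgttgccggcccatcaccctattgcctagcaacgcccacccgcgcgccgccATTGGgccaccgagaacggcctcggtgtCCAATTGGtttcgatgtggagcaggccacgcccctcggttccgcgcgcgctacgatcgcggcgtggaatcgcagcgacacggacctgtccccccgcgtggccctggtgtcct
Elovl5: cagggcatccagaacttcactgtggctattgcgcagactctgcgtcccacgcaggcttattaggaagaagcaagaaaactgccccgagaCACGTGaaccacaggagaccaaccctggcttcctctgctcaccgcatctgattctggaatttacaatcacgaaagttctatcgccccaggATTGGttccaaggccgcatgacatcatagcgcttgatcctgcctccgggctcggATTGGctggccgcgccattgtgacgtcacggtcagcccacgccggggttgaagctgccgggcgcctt

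The Fasn window holds 3 matches, all to the NF-Y box, of which a pair overlap, and the Elovl5 window holds 2 to the NF-Y box and 1 to the E-box. Of 32851 windows of the same length in that table, 37.4% hold the NF-Y box, 7.15% the E-box, 35.7% the Sp1 box and 1.24% the SREBP element. Those shares are per window, whereas the 7 members have 8 windows, with more than 1 for Elovl1, and are counted per gene. Of the 7 members, 4 held the NF-Y box (Fasn, Elovl5, Acly and Elovl1) and 3 the Sp1 box (Acly, Elovl1 and Fads2). The E-box was held by 1 and the SREBP element by 0, which shows little for an element in 1.24% of windows. The windows of Acaca and Elovl6 held none of these motifs. In the Acaca window the bases before the start end in cccatag, the form of a splice acceptor. That window may therefore lie at an exon border, and its lack of motifs cannot be read as that of the Acaca promoter. These are matches of letters, not sites shown to be bound.

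Around the members, 94 further genes of lipid metabolism were followed in 8 lists, and 77 of them were tested. Of these, 1 rose and 2 fell in diabetic samples, 3.9% of the 77 against the 4.76% of all genes. The groups did not overlap for 5 of the 77, against 9.42% of all genes tested. Pgd, an enzyme of the pentose phosphate pathway that makes NADPH for fatty acid synthesis, had 60.3, 64.7, 60.0 and 57.5 FPKM in diabetic samples 1 to 4, against 75.8, 88.6, 82.9, 72.1 and 90.5 FPKM in control samples 1 to 5. It fell without overlap of the groups (log2 fold change -0.43, SE 0.099, adjusted p = 0.037 by limma). The other genes that supply acetyl-CoA or NADPH or aid the first steps did not pass. Of the 7 tested genes of that list 6 were negative, Pgd among them (median log2 fold change -0.16), against 5851 of 11193 genes tested. When centred on macrophage markers 2 of 7 were negative, with a median of 0.082. Idh1, the cytosolic isocitrate dehydrogenase and another source of NADPH, had a log2 fold change of -0.34 (adjusted p = 0.29), and Slc25a1, the citrate carrier, one of -0.17 (adjusted p = 0.43; both chosen after their values were seen).

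Mylip encodes an LXR-induced ubiquitin ligase. It rose to 32.01, 32.2, 30.2 and 32.6 FPKM in diabetic samples 1 to 4, against 21.6, 12.9, 19.6, 17.9 and 27.3 FPKM in control samples 1 to 5 (log2 fold change 0.69, SE 0.17, adjusted p = 0.046 by limma). The groups did not overlap. Mylip was the only 1 of 7 tested LXR targets to pass, and Abca1 and Abcg1, the cholesterol exporters of that list, had log2 fold changes of -0.068 and 0.28 (adjusted p = 0.92 and 0.38 by limma; both chosen after their values were seen). The calls of Pgd and Mylip depended on single samples and on the scaling. Centred on macrophage markers, Pgd had a log2 fold change of -0.18 (adjusted p = 0.51 by limma) and Mylip one of 0.94 (adjusted p = 0.063). Of the 9 fits that each left out 1 sample, Pgd passed in 2 (without control 4 or diabetic 3), and Mylip in 3 (without control 2, control 5 or diabetic 3).

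No gene passed among the elongation partners, the regulators, or the genes of esterification, lipid droplets and mitochondrial synthesis. All 9 tested partners of elongation and desaturation had negative log2 fold changes, with a median of -0.23, against 5851 of 11193 genes tested. With quantile normalization 7 of 9 were negative. Centred on macrophage markers 3 of 9 were negative, with a median of 0.014. The smallest p belonged to the dehydratases Hacd1 (log2 fold change -0.44, adjusted p = 0.19 by limma) and Hacd2 (-0.23, adjusted p = 0.28). The 15 regulators had a median of -0.018, and Rxra, the partner of LXR, had a log2 fold change of -0.41 (adjusted p = 0.17). Among 14 genes of acyl-CoA activation and esterification the median was -0.055. There Lpcat1 did not overlap between groups (log2 fold change 0.35, adjusted p = 0.068) and Dgat2, which makes triglyceride, had a log2 fold change of -0.69 (adjusted p = 0.15). Dgat2 ranked the control samples in the same order as the neutrophil marker S100a9 did, but not the diabetic samples. The part of neutrophils in the Dgat2 values was not tested. Plin2, the coat protein of lipid droplets, had a mean of 639 FPKM in diabetic and 690 FPKM in control samples (log2 fold change -0.11, adjusted p = 0.81 by limma; chosen after its values were seen). In its list of 8 tested genes Mgll and Plin3 had the smallest p (log2 fold changes -0.59 and -0.31, adjusted p = 0.10 and 0.23). The 8 tested genes of mitochondrial fatty acid synthesis had a median of 0.014, with Ndufab1 at 0.35 (adjusted p = 0.12) and Lipt2 at -0.38 (adjusted p = 0.23).

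**Figure D4:**
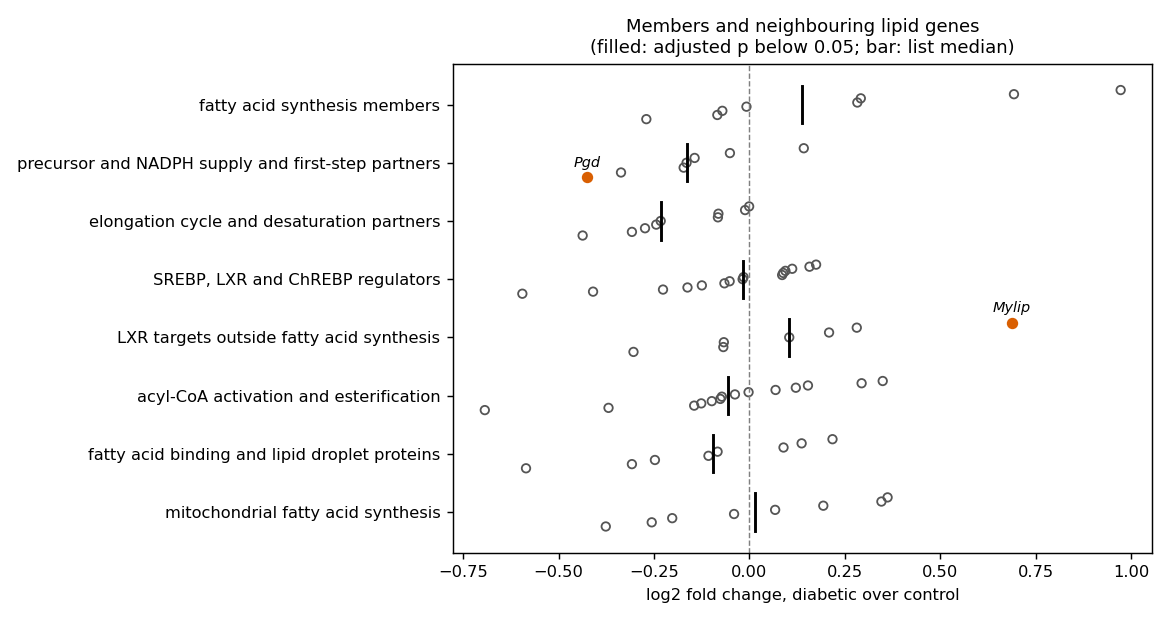
Log2 fold change of diabetic over control samples for each tested gene (points) of the fatty acid synthesis members and of 7 neighbouring lists of lipid genes, with the list medians as bars. Filled points passed at an adjusted p below 0.05: Pgd on the negative side and Mylip on the positive side; the point farthest to the right among the members is Scd1 at 0.97.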

How the data were processed

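For 41096 genes in 9 samples the authors deposited FPKM, reads scaled to gene length and library size, beside names, positions and gene lengths, per the file headers; 0 columns of sample values were left unmatched. GRCm38 and mm10 are the builds listed per the submitters' processing notes, but the identifiers belong to the C57BL/6NJ gene set and 0 of the 10 members start where a GENCODE annotation of GRCm38 has them, so positions are printed as the table gives them and their build is not given in the sources used here. Aligner, counter and strandedness: not given in the sources used here. Libraries were made with a SMARTER kit, per the labels' protocols.

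FPKM multiplied by gene length fell on whole reads (100% of values within 0.05 of a whole number), which gave reads per gene. The tests used limma 3.58.1 (R 4.3.3), applied to log2(FPKM + 1) with trend and robust moderation and group as the only factor. That scale understates changes of low genes. Genes entered if 4 or more samples had an FPKM of 1 or higher. Values outside that fit were tested by exact permutation of the samples (126 splits, two-sided, smallest possible p 0.0079). The fit was tested on simulated reads. It called 69 of 99 genes changed 2-fold, 92 of 96 changed 4-fold and 6 of 10827 unchanged, so a 2-fold change can be missed.

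Named genes are the 10 members, the 4 transcription factors, and from each of the 8 lists up to 4 passing genes or, where none passes, the 2 with the smallest p. The members and lists were chosen with earlier results of these data known. Of the 8 lists, 1 and its passing gene count in the totals and are otherwise not reported here. Alternatives were pseudocounts of 0.1 and 5, other filters, quantile normalization, centring on macrophage markers, plain moderation, array weights, limma voom on the recovered reads, a replicate block and leaving out each sample. Sequences came from RefSeq (GRCm38.p6) and GENCODE (GRCm38), aligned with Biopython 1.88.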

Additional observations from a re-analysis of the deposited data

Results flagged for a closer look

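The flags below mark samples far from the rest of their group by Dixon's criterion at the 95% level, over 54 groups of values. Chance alone flags about 1 in 20 such groups, and 4 were flagged.

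Acly was flagged in both groups. Among diabetic samples diabetic 4 was low at 49.0 FPKM, with the others at 52.0 to 52.5 FPKM, a gap that is small against the control spread. Among control samples control 2 was high at 67.4 FPKM, with the others at 48.3 to 53.5 FPKM. The log2 ratio of Scd2 to Scd1 was flagged for diabetic 3, at 0.29 with the other diabetic samples at -0.76 to -0.69. Hacd1, a dehydratase of the elongation cycle, was flagged for diabetic 2 at 3.31 FPKM, with the other diabetic samples at 2.35 to 2.50 FPKM.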

How the results depend on the processing

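No member passed the test as lower in diabetic samples in any of the 19 alternatives. The count of members passing as higher was 1 in place of 0 with array weights. It ran from 0 to 1 with 1 sample left out, and the member was Scd1. Fasn, Scd1, Scd2, Fads1, Elovl5 and Elovl6 kept their sign in every alternative that gave them a value. Centring on macrophage markers turned the sign of Acly (0.18), Acaca (0.24), Elovl1 (0.16), Hacd2 (0.014), Srebf1 (0.18) and Srebf2 (0.19). It subtracts the mean of the 10 tested markers in each sample and so moves the log2 fold change of every gene alike. The 10 include Mrc1, which itself fell (log2 fold change -1.13, adjusted p = 0.033 by limma), and centring without Mrc1 was not tested. Centring moved the median of all genes to 0.23 and the calls to 225 higher and 11 lower, against 300 and 233. Acaca also turned with voom (0.025) and with the replicate block (0.0094). With 1 sample left out, the range was -0.053 to 0.056 for Acaca, -0.11 to 0.0073 for Acly, -0.15 to 0.026 for Elovl1, -0.15 to 0.028 for Srebf2 and -0.023 to 0.096 for Fads2. In place of 533 genes changed, there were 183 with no filter, 236 with that centring, 1304 with array weights, 62 with the replicate block and 115 (without diabetic 4) to 1126 (without diabetic 3) with 1 sample left out. The other pathway genes, 1 higher and 2 lower, came to 0 and 0 with no filter, that centring or the block, and to 3 and 6 with array weights. With plain moderation or voom 0 were higher (Mylip, adjusted p = 0.052 and 0.051 by limma), and with 1 sample left out 0 to 3 were higher and 0 to 5 lower. Same-numbered samples did not deviate together (correlations of 0.023, 0.16, -0.26 and -0.18), so the numbers were not taken as pairs. With the block Scd1 stood at 1.05 (adjusted p = 0.14 by limma) and the Scd2 to Scd1 ratio at -0.086. Control 5 has no diabetic sample of its number, so the block leaves it out of the comparison. These 2 values are therefore the same as in the fit without control 5. The cause of these changes was not tested. Fads2, at 9 to 19 reads, is limited by depth.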
